A study of Mus musculus with 21 samples.

Results

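Mouse CD8 T cells that had been kept for 10 days in IL-15 at 50 IU/mL were compared with cells kept for the same time in IL-2 at the same dose. The libraries were chosen by their titles, and all deposited cells of both were used: 6548 cells with IL-15 and 4937 with IL-2, or 11485 of the 106456 cells in the 21 libraries of the series. The cells carried the OT1 T cell receptor, a transgene that recognises a peptide of ovalbumin. Naive OT1 cells were activated on day 0 with beads coated with antibodies to CD3 and CD28, in both arms alike, and then expanded with the cytokine; mouse strain and age are not given in the sources used here. Naive cells, activated cells without cytokine, and cells in IL-2, IL-15 or IL-2v (a mutant IL-2) at 5 or 50 IU/mL on days 3, 5 and 10 made up the other 19 libraries. Each condition had 1 library, so no test of a difference was possible. Every interval below is a 95% interval for counting error only and says nothing of how separate cultures vary.

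IL-2 and IL-15 are short-chain cytokines that signal through the same pair of receptor chains, IL-2R beta (CD122) and the common gamma chain, which carry the kinases JAK1 and JAK3 and activate the transcription factor STAT5. Each has a private alpha chain: IL-2R alpha (CD25) raises the affinity of the cell for IL-2, and IL-15R alpha usually presents IL-15 from a neighbouring cell. In cultured CD8 T cells, IL-2 is widely used to drive effector differentiation and IL-15 to keep cells in a memory-like state.

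The values were unique molecular identifiers (UMIs), tags that count captured RNA molecules. The IL-15 library held 31864193 UMIs and the IL-2 library 27274115, with medians of 4383 and 5065 UMIs and of 1456 and 1667 detected genes per cell. UMIs of each gene were summed over the cells of a library and scaled by its total (CPM, the usual unit of counts relative to library size). The treatment labels named other interleukins than the titles did (Interleukin-16 for the IL-15 library and Interleukin-3 for the IL-2 library), and titles and design text were followed. Markers of CD8 T cells were present in both libraries: Cd3d was seen in at least 97.7% of the cells of each, and Cd8b1 in 92.0% of IL-15 cells and 54.5% of IL-2 cells. Of the markers of other lineages, Foxp3, Ms4a1, Pax5, Ebf1, Lyz2, Csf1r, Adgre1, Mpeg1 and Ncr1 were at 0 UMIs in both, and Cd4 had 0 and 2 UMIs. The B cell list summed to 9.51 and 2.64 CPM, nearly all of it Cd79b, which was seen in 4.31% and 1.24% of cells. The myeloid list summed to 74.8 and 125 CPM, most of it Cst3. Cd68 of that list was at 1.22 and 14.9 CPM, in 0.580% and 7.39% of cells. The NK list summed to 51.1 and 104 CPM, nearly all of it Eomes and Klrb1c. Zbtb7b, a gene of the CD4 T list, was the only member of that list with at least 20 CPM, at 4.33 and 27.3 CPM. The libraries shared 9 cell barcodes, within the range of 1 to 19 for the 210 pairs of libraries. A rule meant to find possible cells of other lineages picked those with UMIs of 2 or more genes of the erythroid, myeloid and B cell lists. Cells with Cd4 but neither Cd8a nor Cd8b1 were picked too, and the NK list was not used. It picked 123 IL-15 cells (1.88%) and 253 IL-2 cells (5.12%), and the gene counts below were 540 higher and 644 lower without them. Cst3 alone was seen in 28.7% of IL-15 and 41.3% of IL-2 cells, so these are not shares of other lineages. What the picked cells were was not tested.

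After 10 days the 2 cytokines left cells with very different transcriptomes. Cells in IL-15 held messages of lymph node homing and of the naive and memory state (S1pr1, Klf2, Tcf7, Ccr7), which were all but absent in IL-2. Cells in IL-2 held granzymes A to G, osteopontin, IFITM proteins, metallothioneins and enzymes of sterol and amino acid synthesis, at higher levels than cells in IL-15. Among 5555 genes with at least 20 CPM in either library, 548 (9.86%) were at least 2-fold higher with IL-15 and 644 (11.6%) at least 2-fold lower, measured as a difference of at least 1 in log2(CPM + 1). That scale understates the change of low genes. The median difference over all tested genes was 0.05. Ribosomal protein messages took 42.9% of UMIs with IL-15 and 32.8% with IL-2; with library totals that left out ribosomal and mitochondrial genes, the counts were 1234 higher and 615 lower among 7282 genes that reached the minimum, and the median of all genes moved to 0.34. Higher genes were then 66.7% of those counted, against 46.0% with full totals. In the text below, higher and lower mean IL-15 relative to IL-2 with full totals, a difference means that of log2(CPM + 1) values, and a fold is a ratio of CPM values.

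**Figure D1:**
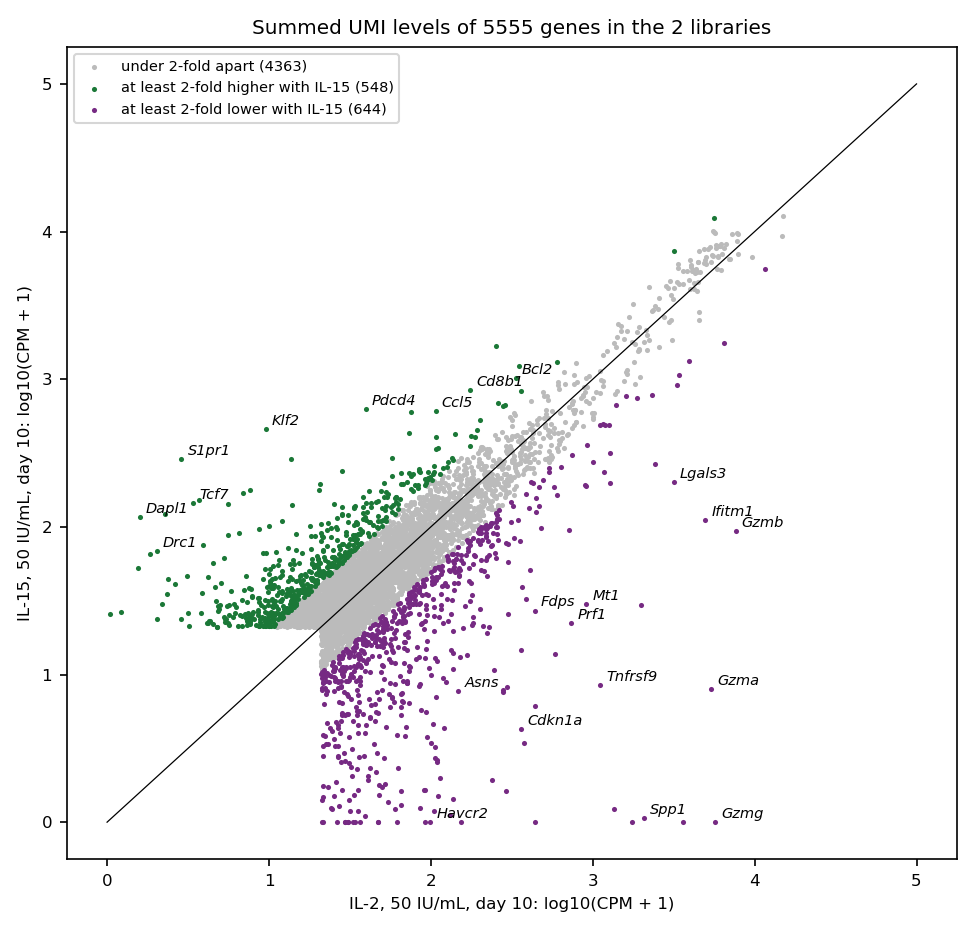
Summed UMI levels of the 5555 tested genes, with IL-2 on the horizontal and IL-15 on the vertical axis, both as log10(CPM + 1); each point is a gene and the line marks equal levels. Gzmg, Havcr2 and Spp1 lie along the lower edge at 0 or close to 0 CPM with IL-15, and S1pr1, Klf2, Tcf7 and Dapl1 lie far above the line.

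The receptor side was examined first, since the cytokines share it. Il2ra, which encodes the alpha chain private to IL-2, stood at 57.2 CPM with IL-15 (54.6 to 59.9) and 299.9 CPM with IL-2 (293 to 306), 5.24-fold lower. Il2rb, the shared beta chain, was at 275 and 536 CPM, just short of a 2-fold difference (-0.96). The common gamma chain gene Il2rg went the other way without reaching 2-fold (234 and 163 CPM), and 43.7% of its transcript is shared with a second gene model, Gm20489, on the same strand. Of the kinases, Jak1 was 2.35-fold higher (450.5 and 192 CPM) and Jak3 2.81-fold lower (19.8 and 55.5 CPM). Il15ra was low in both, at 10.8 and 7.77 CPM. Of the 7 tested members of this list 1 was higher and 2 were lower, with a median difference of -0.33. With totals that left out ribosomal and mitochondrial genes the list median was 0.68. Those totals let more genes reach the 20 CPM minimum, so the medians need not rest on the same members.

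Genes switched on by STAT5 did not move as a block. Of 14 tested members, 4 were higher and 3 lower, with a median of -0.10 that also changed sign with the other totals. Cish and Pim1, both direct targets of STAT5 in T cells, were close: 117 and 163 CPM for Cish, which encodes a feedback inhibitor, and 278 and 283 CPM for Pim1, a survival kinase. Socs1, a second feedback inhibitor, was 3.21-fold higher with IL-15 (231 and 71.9 CPM). Bcl2, the survival factor of memory T cells, was 3.05-fold higher (1015 and 333 CPM), and Myc, which drives growth, was 5.81-fold higher (142 and 24.4 CPM). Gadd45g, a stress-kinase activator, was 26.6-fold lower (13.6 and 361 CPM), and Dusp5, an ERK phosphatase, 4.13-fold lower (21.2 and 87.6 CPM). Lta, which encodes lymphotoxin alpha, was 3.24-fold lower.

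The homing and memory surface list held the widest differences in favour of IL-15, with 11 of 16 tested members higher, 1 lower and a median of 3.56 (1.88 with a pseudocount of 10 CPM). S1pr1 encodes the receptor by which T cells leave lymph nodes along a sphingosine 1-phosphate gradient; it was at 288 CPM with IL-15 (282 to 294) and 1.87 CPM with IL-2 (1.39 to 2.46), 154-fold higher (117 to 207). Ccr7, the receptor for lymph node chemokines, was at 149.9 and 2.68 CPM. Both genes of lymph node traffic were therefore at least 56.0-fold higher with IL-15. Dapl1, a gene of naive CD8 cells, was 196-fold higher (115 and 0.587 CPM). Il7r, which encodes the alpha chain of the IL-7 receptor on resting T cells, differed less, at 96.6 and 23.1 CPM, and Cd27, a costimulatory receptor of memory cells, was 9.78-fold higher. Ly6a, which encodes the activation antigen Sca-1, was the member that went the other way (199 and 1277 CPM). Cd44, the usual marker of antigen experience, was at 42.1 and 80.2 CPM, under 2-fold apart.

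The 15 highest genes, drawn from those whose larger value was 50 CPM or more, held some outside these lists. Nsg2 was 76.7-fold higher (64.7 and 0.843 CPM) and Pdcd4, an inhibitor of translation, 16.4-fold (630.0 and 38.5 CPM). Cd7, a surface protein of T cells, was 28.7-fold higher (169.7 and 5.90 CPM), and Sh3bp5, which binds a tyrosine kinase, 31.0-fold (142 and 4.58 CPM). Drc1, known from motile cilia, was 66.1-fold higher (67.9 and 1.03 CPM), and Dyrk4, a kinase gene, 93.4-fold (51.3 and 0.550 CPM). A pair of noncoding RNAs was also among them: Gm26740, an antisense transcript, at 122 and 1.28 CPM, and Gm2682, a lincRNA, at 178 and 6.64 CPM.

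Transcription factors split along the same line. Of 14 tested factors of the stem and quiescence list, 9 were higher and 0 lower (median 1.32). Klf2, which drives S1pr1, was at 460.2 CPM with IL-15 (453 to 468) and 8.54 CPM with IL-2 (7.48 to 9.71), 53.9-fold higher. Tcf7, which encodes TCF-1, the factor of stem-like CD8 cells, was 60.2-fold higher (144 and 2.38 CPM). Its partner Lef1 was higher by a smaller fold (2.84; 201 and 70.7 CPM), as were Foxo1 (111 and 49.4 CPM) and Bach2 (46.9 and 22.6 CPM), factors of quiescent cells. Id3, the inhibitor protein of long-lived cells, was 24.8-fold higher (40.0 and 1.61 CPM) and Id2, its effector counterpart, 5.00-fold lower (235 and 1177 CPM). Of 14 tested effector factors, 9 were lower and 1, Ikzf3, was higher (median -2.09). The list median was -1.24 with totals that left out ribosomal and mitochondrial genes, which let more genes reach the 20 CPM minimum. Zbtb32, a repressor induced by activation, was 461-fold lower (0.628 and 289 CPM), Irf8 40.4-fold (6.90 and 279 CPM), and Prdm1, which encodes Blimp-1, 8.72-fold (3.04 and 26.5 CPM). Batf3 had 0 UMIs with IL-15 and 46.0 CPM with IL-2. Eomes (48.3 and 82.9 CPM) and Runx3 (306 and 383 CPM), both of them factors of cytotoxic cells, were under 2-fold apart. Tbx21, which encodes T-bet, missed the 20 CPM minimum and was nominally higher with IL-15 (19.0 and 4.62 CPM).

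Killing genes held the widest differences on the IL-2 side. Granule proteins summed to 1884 CPM with IL-15 and 17511 CPM with IL-2, and 8 of 12 tested members were lower, 1 higher. Gzmb, the main granzyme of effector CD8 cells, was at 93.1 CPM (89.7 to 96.5) with IL-15 and 7618 CPM (7585 to 7650.3) with IL-2, 81.9-fold lower. Gzma was 765-fold lower, at 7.00 and 5352 CPM. Prf1 encodes perforin, the pore through which granzymes enter a target; it was 34.2-fold lower (21.4 and 732 CPM). Serpinb9, the inhibitor that shields a killer cell from its own granzyme B, was 12.3-fold lower. Some granule genes hardly differed: Lamp1, the membrane protein exposed on degranulation, was at 67.8 and 56.1 CPM and Fasl at 19.4 and 23.4 CPM. Ctsc, the protease that activates granzymes, was the member that was higher (67.9 and 31.5 CPM).

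Late granzymes, the group that appears only after prolonged stimulation with IL-2 in cultured killer cells, included the widest differences of all tested genes. Gzmd, Gzme, Gzmf and Gzmg had 0 UMIs among the 31864193 of the IL-15 library. With IL-2, Gzmg reached 5667 CPM (5639 to 5695), Gzmd 3602 CPM, Gzme 1752 CPM and Gzmf 438 CPM. Set against 3 UMIs in the IL-15 library, the floor used for genes at 0 UMIs, Gzmg was at least 60189-fold lower and Gzmf at least 4655-fold lower. Gzmc had 7 UMIs with IL-15 and 36894 with IL-2 (6158-fold lower, 2988 to 15316). All 5 tested members were lower, with a median difference of -10.78, or -10.65 with the genes at 0 set to 3 UMIs. Each reached the 20 CPM minimum through the IL-2 library only, so at these IL-15 levels a tested member had to be lower. Gzmb to Gzmg lie in a cluster on chromosome 14 of mm10 in the GENCODE annotation, all on the reverse strand. It runs from Gzme at chr14:56117626-56120625 through Gzmd at chr14:56129556-56132608 and Gzmg at chr14:56156582-56159579 to Gzmb at chr14:56258838-56262260. Gzmn, the member of the list that was not tested, lies among them at chr14:56165797-56174599. Their transcripts are alike: Gzmd and Gzme shared 93.5% identity over 928 aligned bases and Gzmf and Gzmg 88.5% over 910.0, so UMIs of near-identical stretches could have been assigned to a neighbour; how many was not tested.

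Secreted proteins were mixed, with 2 of 5 tested members higher and 2 lower. Spp1, which encodes osteopontin, a matrix protein and cytokine, had 2 UMIs with IL-15 and 56285 with IL-2 (32879-fold lower, 9101 to 271497). Il10, an inhibitory cytokine, had 0 UMIs with IL-15 and 28.6 CPM with IL-2. Ccl5, a chemokine of memory CD8 cells, was 5.73-fold higher (607 and 106 CPM), and Ltb, which encodes lymphotoxin beta, 2.65-fold higher. Xcl1, which attracts cross-presenting dendritic cells, was below the minimum of 20 CPM with 7.12 CPM with IL-15 and 0 UMIs with IL-2. Ifng was low in both (1.35 and 6.93 CPM), as was Tnf (15.2 and 24.0 CPM). The direction of the list median (-0.63) turned positive at a minimum of 50 CPM and in cycling cells alone.

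Surface receptors of activated cells were mostly lower with IL-15. Tnfrsf9, which encodes the costimulator 4-1BB, was at 7.53 CPM (6.61 to 8.55) and 1112 CPM (1099.5 to 1125), 148-fold lower. Havcr2, the gene of the inhibitory receptor TIM-3, had 0 UMIs with IL-15 and 98.3 CPM with IL-2, at least 1044-fold lower. Lag3 (1.51 and 30.1 CPM), Entpd1, which encodes the ectonucleotidase CD39 (8.03 and 69.7 CPM), and Ctla4 (24.6 and 58.7 CPM) were also lower. Of 7 tested inhibitory receptors 5 were lower and none higher, but Havcr2, Lag3 and Entpd1 reached the 20 CPM minimum with IL-2 only. The list median was -2.97, or -0.99 with no minimum. Pdcd1, the PD-1 gene, was too low to be tested (0.282 and 4.51 CPM). Btla, an inhibitory receptor of resting lymphocytes, was also under the minimum, at 10.6 CPM with IL-15 and 0.183 CPM with IL-2. Of 6 tested TNF receptor and costimulation genes, 3 were lower and 1 was higher: Cd226, which encodes the activating receptor DNAM-1 (9.87-fold).

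Chemokine receptors went both ways. Cxcr3, which guides T cells into inflamed tissue, was 25.7-fold higher (74.4 and 2.90 CPM). Ltb4r1, the leukotriene B4 receptor, was 155-fold lower (2.42 and 375 CPM), and the inflammatory chemokine receptor gene Ccr2 (55.6 and 156 CPM) was lower too. Of 10 tested members of this list 1 was higher and 5 were lower. Among integrins, Itga4 of the homing list was 25.2-fold higher (34.2 and 1.36 CPM), while Itgav was 7.47-fold lower and Itgal 2.24-fold lower. Only 4 killer lectin-like receptors and adaptors were tested: Fcer1g, the gamma chain of Fc receptors, was 113-fold lower and Klrb1c 7.47-fold lower. Klrk1, which encodes NKG2D, and Klrd1, which encodes CD94, were under 2-fold apart.

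The coreceptor itself differed. Cd8b1 was at 849 CPM with IL-15 and 174 CPM with IL-2, 4.88-fold higher, and Cd8a at 290.1 and 134 CPM, 2.17-fold higher. Cd5 and Cd6, inhibitory regulators of T cell receptor signalling, were higher by 2.27 and 1.41 log2 units. The other 12 members, among them Cd3d (973 and 1162 CPM), Cd247 (101 and 104 CPM) and Zap70 (99.4 and 136 CPM), were under 2-fold apart, and none of the 16 was lower. Of 8 GIMAP GTPases of lymphocyte survival, 1 reached 2-fold, near the 9.86% of all tested genes that were higher: Gimap3 (411 and 175 CPM). All 8 differences were above 0, as were 2915 of the 5555 tested genes.

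IFITM genes encode membrane proteins that block the entry of enveloped viruses and are induced by interferon in many cells. Ifitm1 was at 110.0 CPM with IL-15 (106 to 114) and 4950.0 CPM with IL-2 (4924 to 4977), 45.0-fold lower. Ifitm2 (28.8 and 1992 CPM) and Ifitm3 (12.7 and 587 CPM) followed; 40.9% of the Ifitm2 exons overlap a second gene, Gm45717, on the same strand. Of 16 other tested interferon-stimulated genes, 6 were lower and 2 higher, with a median of -0.47, against 11.6% and 9.86% of all tested genes. In the pairs at 50 IU/mL of earlier days the same list leaned the other way. On day 3, 9 of 14 were higher and 0 lower (median 1.25), where 2.24% of all tested genes were higher. On day 5, 6 of 15 were higher and 0 lower (median 0.79), where 4.29% of all tested genes were higher. At 5 IU/mL on day 10, 3 of 17 were lower and 0 higher (median -0.52), against 9.19% and 2.42% of all tested genes. Isg15, a ubiquitin-like modifier, was 9.01-fold lower, and Ifi203, a nucleic acid sensor gene, 9.04-fold higher. MHC class I genes were under 2-fold apart (H2-K1 at 1588 and 1917 CPM, B2m at 1603 and 1920.0 CPM), with the chaperone gene Calr the 1 member of 15 that was lower (125 and 443 CPM). Of 2 tested class II genes, H2-DMa was higher (42.6 and 17.4 CPM) and H2-Ab1 lower (23.9 and 66.6 CPM). Proteasome genes were under 2-fold apart in 18 of 19, with Psmb6 lower.

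Calcium-binding, galectin and annexin genes, which mark effector and tissue T cells, were lower in 9 of 16 members. Lgals3 was 15.8-fold lower (200.3 and 3156 CPM), Anxa2 4.88-fold (187 and 911 CPM), and S100a6 2.94-fold (1334 and 3925 CPM). Crip1, a small zinc-binding protein gene, was 3.53-fold higher (1226 and 347 CPM). Ly6g, Adam8, Lmna and the lincRNA Gm36723 (0.439 and 136 CPM) were among the 15 lowest genes. Ly6g, best known from granulocytes, had 0 UMIs with IL-15 and 152 CPM with IL-2. Of the myeloid markers, Lyz2, Csf1r, Adgre1 and Mpeg1 were at 0 UMIs in both. Cd68 (1.22 and 14.9 CPM) and Fcgr3 (0.314 and 2.53 CPM) were higher with IL-2. Itgax (0.408 and 0.183 CPM) was higher with IL-15, and Cst3 (72.9 and 107 CPM) was under 2-fold apart. Whether other cells have a part in the Ly6g value was not tested. Adam8, a surface protease, was at 0.941 and 238 CPM and Lmna, the lamin A gene, at 0.126 and 131 CPM.

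Metallothioneins are small cysteine-rich proteins that bind zinc and copper; their genes are switched on through metal response elements read by MTF-1. Mt1 was at 29.1 CPM with IL-15 (27.2 to 31.0) and 908 CPM with IL-2 (897 to 919), 31.2-fold lower. Mt2 was 85.9-fold lower (5.12 and 439 CPM), with the reservation that 73.5% of its exons overlap Gm45774 on the opposite strand. Slc39a14, a zinc importer, was 4.78-fold lower, whereas Slc30a1, the zinc exporter, and Mtf1 itself were below 20 CPM and near equal (5.21 and 4.99 CPM, 14.3 and 17.8 CPM). Mt1 and Mt2 are neighbours on chromosome 8, and the 250 bases before their RefSeq start sites are given because both genes differed together. The letters searched were TGCACNC and TGCGCNC on both strands, the core of a metal response element, shown in capitals; in the Mt1 window, the match begins 23 bases before the start, and in the Mt2 window the matches begin 223, 128 and 50 bases before it. The windows are chr8:94178839-94179088 and chr8:94172368-94172617 on the forward strand of GRCm38.p6, read 5′ to 3′.
Mt1: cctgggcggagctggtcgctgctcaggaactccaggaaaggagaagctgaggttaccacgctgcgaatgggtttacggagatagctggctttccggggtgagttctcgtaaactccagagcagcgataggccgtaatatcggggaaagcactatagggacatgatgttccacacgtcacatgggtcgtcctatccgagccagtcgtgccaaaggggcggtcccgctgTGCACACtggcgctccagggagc
Mt2: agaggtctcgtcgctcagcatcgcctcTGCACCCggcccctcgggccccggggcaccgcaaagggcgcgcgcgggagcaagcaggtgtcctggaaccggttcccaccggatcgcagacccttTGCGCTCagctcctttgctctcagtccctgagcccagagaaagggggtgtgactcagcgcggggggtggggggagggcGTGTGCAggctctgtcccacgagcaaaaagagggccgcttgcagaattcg
These letters are common: 34.4% of tested genes and 23.8% of all genes in the promoter table held a match in a window of this length. A match describes the sequence and does not show that a factor binds there.

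The list of ATF4 and stress response genes was lower with IL-15 in 9 of 11 tested members (median -3.53). The factor ATF4 switches on genes of the integrated stress response when amino acids are short or proteins misfold. The list also holds genes of other stress responses. Atf4 was at 50.4 and 411 CPM, 8.15-fold lower, and Ddit3, which encodes CHOP, 12.1-fold lower (18.1 and 220.0 CPM). Asns, which makes asparagine, was at 6.72 CPM (5.85 to 7.68) with IL-15 and 146 CPM (142 to 151) with IL-2. Trib3, a pseudokinase that restrains the same pathway, was 15.5-fold lower, and Nupr1, a stress-induced chromatin protein gene, had 0 UMIs with IL-15 and 91.6 CPM with IL-2. Ddit3, Asns and Nupr1 reached the 20 CPM minimum with IL-2 only, so at these IL-15 levels their differences had to be below 0. Chac1, which degrades glutathione, had 0 UMIs with IL-15 and 19.6 CPM with IL-2, just under the minimum for testing. The member that went the other way was Txnip, a brake on glucose uptake, at 427 and 140.5 CPM. The element that ATF4 binds with C/EBP partners was searched as TGATGNAA on both strands. Windows of 6 of the 15 members found in the promoter table held it, as did 2 of the 9 lower members, against 2.46% of tested genes and 3.91% of all genes. The list was put together from genes tied to these stress responses, so the share describes the list and not the difference between cytokines. The sequences below carry it in capitals. That of Chac1 is the whole window of 250 bases on the forward strand (chr2:119350992-119351241), and those of Asns (chr6:7693214-7693243) and Nupr1 (chr7:126625562-126625591) are 30 bases on the reverse strand around the match, which begins 193, 23 and 110 bases before the start. In the GENCODE annotation, 45 bases of the Asns window, 13 of the Chac1 window and all 250 of the Nupr1 window lie in exons of the gene itself.
Asns: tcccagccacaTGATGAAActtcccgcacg
Nupr1: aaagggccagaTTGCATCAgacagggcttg
Chac1: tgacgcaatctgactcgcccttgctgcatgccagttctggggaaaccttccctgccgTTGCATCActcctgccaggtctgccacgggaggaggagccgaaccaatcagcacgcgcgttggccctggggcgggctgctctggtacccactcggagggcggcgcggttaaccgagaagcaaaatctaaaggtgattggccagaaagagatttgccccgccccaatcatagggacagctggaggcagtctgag
Trib3, Ddit3, Atf5 and Sesn2 had no such letters in their windows. Amino acid uptake and serine and one-carbon enzymes differed in the same direction, with 11 of 15 tested members lower and none higher (median -1.55). Slc7a5, the light chain of the leucine transporter, was 25.1-fold lower (9.70 and 244 CPM), Psat1 of serine synthesis 7.23-fold (18.9 and 136 CPM), and Mthfd2 of mitochondrial folate metabolism 5.75-fold (27.9 and 161 CPM). Slc7a5 and Psat1 reached 20 CPM with IL-2 only. Windows of 3 of the 17 members of this list in the promoter table held the ATF4 letters, as did 1 of the 9 lower ones. Those of Psat1 and Mthfd2 did not. Phgdh, the entry enzyme of serine synthesis, was 3.20-fold lower, although 84.3% of its transcript is near-identical to the pseudogene Gm7901.

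Genes of sterol and fatty acid synthesis were lower with IL-15 almost throughout. Of 23 tested members, 20 were at least 2-fold lower and none was higher; all 23 differences were below 0, and their median was -2.45. Hmgcs1, which makes HMG-CoA, was at 19.9 CPM (18.4 to 21.5) with IL-15 and 227 CPM (222 to 233) with IL-2. Fdps, which makes farnesyl diphosphate, was 16.8-fold lower (26.1 and 437 CPM), with an overlapping gene on its strand. Scd2, a fatty acid desaturase, was 9.54-fold lower, and Scd1 269.5-fold (0.220 and 59.2 CPM). The transcription factor genes of the pathway differed less: Srebf2 was at 57.4 and 136 CPM, and Srebf1 missed 2-fold at 15.2 and 30.3 CPM. Hmgcs1, Scd1 and Srebf1 reached the 20 CPM minimum with IL-2 only, so at these IL-15 levels their differences had to be below 0. Fasn (36.6 and 57.6 CPM) and Acly (41.2 and 62.4 CPM) of fatty acid synthesis also stayed under 2-fold. The sterol regulatory element was searched as TCACNCCAC on both strands and was found in the Hmgcs1 window, on the forward strand of chromosome 13 (chr13:119690101-119690350), 137 bases before the start.
Hmgcs1: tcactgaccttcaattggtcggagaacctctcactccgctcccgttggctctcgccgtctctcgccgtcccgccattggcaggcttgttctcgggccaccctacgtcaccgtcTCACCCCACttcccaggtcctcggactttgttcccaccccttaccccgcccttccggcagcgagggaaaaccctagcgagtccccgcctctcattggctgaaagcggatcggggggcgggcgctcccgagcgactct
It was found in 1 of the 19 members in the promoter table and in 1.12% of tested genes. No match in the other windows says only that these letters are not there.

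Energy metabolism differed little beside this. Glycolytic enzymes were nominally lower, with a list median of -0.41 and 1 of 18 members lower by 2-fold: the glucose transporter gene Slc2a3, at 45.3 and 222 CPM. Pfkl and Pdk1, which encode a phosphofructokinase and a kinase that inhibits pyruvate dehydrogenase, were higher by 1.20 and 1.67 log2 units. None of 20 TCA cycle genes and 2 of 78 nuclear genes of oxidative phosphorylation (Uqcrq and Atp5d, both lower) reached 2-fold. Of 13 fatty acid oxidation genes, Acadl (50.0 and 204 CPM) and Etfb were lower; Etfb shares most of its transcript with a second gene model. Medians of the TCA cycle and fatty acid oxidation lists lay within 0.1 of 0 and changed sign with totals that left out ribosomal and mitochondrial genes. None of 13 genes of the mitochondrial genome reached 2-fold. Cytosolic ribosomal protein genes had a median of 0.36, with 69 of 79 above 0 but only Rps29 and Rps27 at least 2-fold higher and 1 member lower. Ribosome biogenesis genes had a median of 0.02, which turned negative under TMM scaling. Among chaperones, the endoplasmic reticulum genes Hspa5 (96.7 and 479 CPM) and Hsp90b1 (184 and 464 CPM) were lower, and the 9 other tested members were under 2-fold apart.

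**Figure D2:**
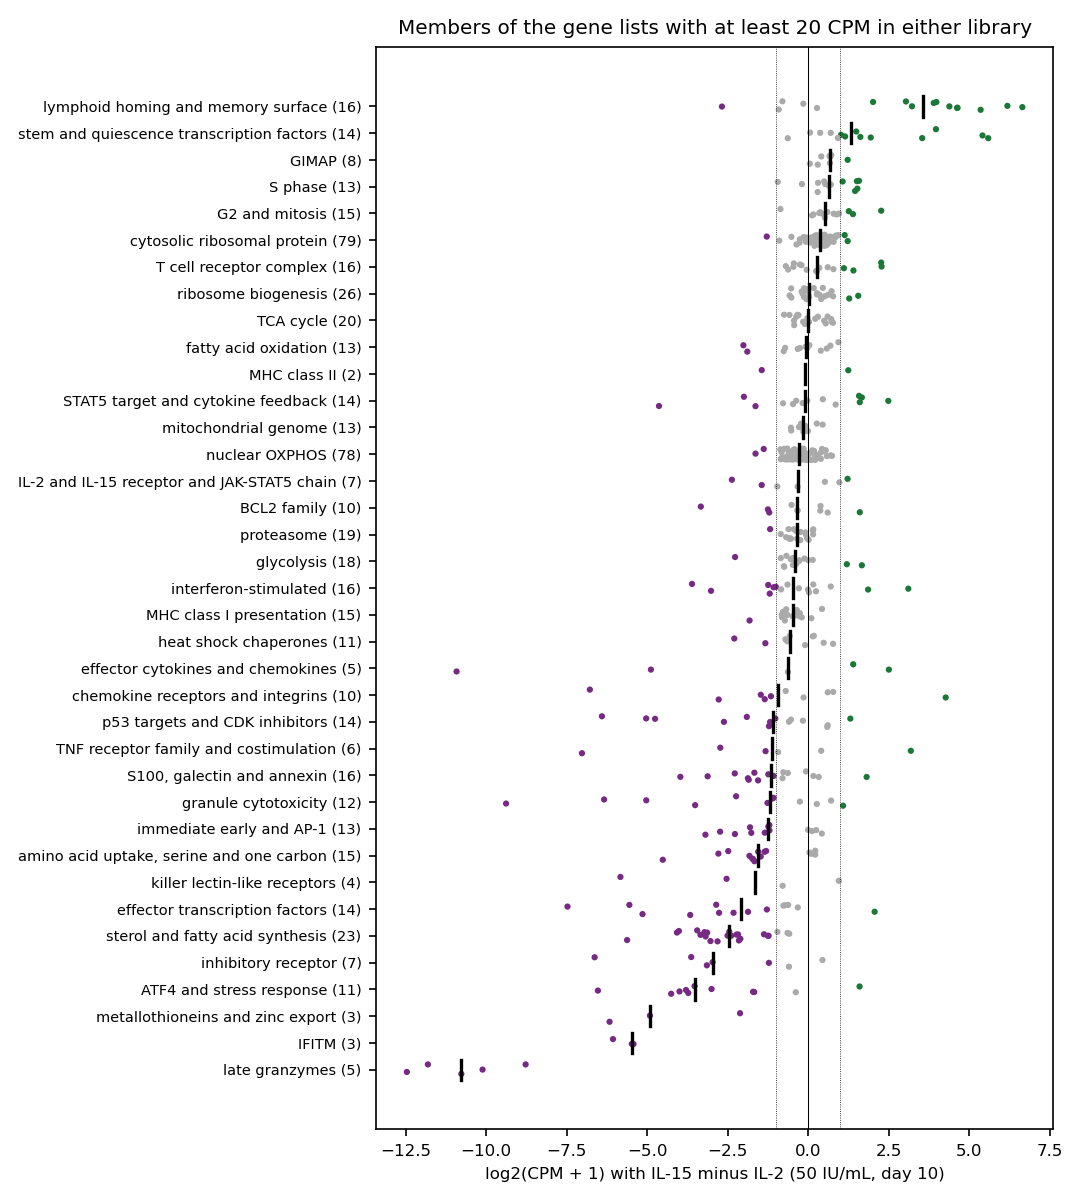
Differences in log2(CPM + 1), IL-15 minus IL-2, for each tested member of each gene list with at least 2 of them; points are genes (green higher, purple lower, grey under 2-fold apart), black bars are list medians, dotted lines mark 2-fold, and the number of tested members stands after each name. Late granzymes lie at the bottom with a median of -10.78 and homing genes at the top with 3.56.

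The share of cells with a UMI of Mki67 or Top2a depended on depth and on the cells kept, and regulators of the cycle differed. With each cell thinned at random to 2000 UMIs, 7.66% of IL-15 cells (7.02 to 8.33%) and 8.10% of IL-2 cells (7.33 to 8.91%) held a UMI of Mki67 or Top2a, 2 genes of dividing cells; without thinning the shares were 13.1% and 13.4%. Without cells of more than 2 times the median UMIs they were 6.23% (5.63 to 6.87%) and 7.74% (6.96 to 8.57%). These intervals cover counting error over the cells of 1 library each and do not test the conditions. In naive cells the thinned share was 1.86%. A looser rule, at least 3 UMIs of the S phase and mitosis lists, took 40.8% of IL-15, 30.9% of IL-2 and 49.2% of naive cells. It took a larger share of naive cells than of either cytokine library, so it cannot be read as a share of dividing cells. Some replication genes were higher with IL-15 all the same: 5 of 13 tested S phase genes and 3 of 15 of G2 and mitosis, with none lower in either list. The lists held 34 and 42 genes, so most were under the 20 CPM minimum in both libraries. Among the higher genes were the helicase subunits Mcm4 (30.4 and 9.90 CPM) and Mcm7 (45.9 and 14.7 CPM), which reached that minimum with IL-15 only. Some inhibitors of the cycle were lower with IL-15. Cdkn1a, which encodes p21, was 111-fold lower (3.26 and 361 CPM), Cdkn2a, the p16 and ARF locus, 47.0-fold (2.23 and 105 CPM), and Cdkn2b, which encodes p15, 46.8-fold. Cdkn1b, the p27 gene of quiescent lymphocytes, was higher at 88.8 and 35.2 CPM. In the BCL2 family, Bcl2 was higher and Bak1, Bcl2l1 and Bcl2a1b were lower among 10 tested; Bcl2a1b shares its whole sequence with Bcl2a1d. Of 14 tested p53 targets and cycle inhibitors, 8 were lower, 1 was higher and 5 were under 2-fold apart. Bax, a p53 target that promotes cell death, was 2.33-fold lower (112 and 262 CPM), and Mdm2, another target, was under 2-fold apart (28.2 and 41.3 CPM). Immediate early and AP-1 genes were lower in 9 of 13, such as Dusp6, a phosphatase induced by ERK signalling (5.49 and 58.3 CPM), and Junb (58.9 and 203 CPM).

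The genes were also counted by the share of cells with a UMI, to which RNA free in the suspension can add; its part was not tested. At 2000 UMIs per cell, Gzmb was seen in 14.2% of IL-15 cells (13.4 to 15.1%) and 98.6% of IL-2 cells (98.2 to 98.9%), with 0.582% in naive cells; unthinned, the first 2 shares were 27.7% and 99.3%. Gzmg was seen in 48.0% of IL-2 cells and in 0 of 6438 IL-15 cells, which allows a share of up to 0.0466% (3 cells of the total) of cells with a UMI at this depth. Ifitm1 was in 6.57% and 84.6% of cells, against 0.112% in naive cells (9.06% and 87.8% unthinned). In the IL-2 library the share depended on the number of UMIs asked for: at least 5 UMIs of Gzmb were held by 83.9% of cells, and at least 2 of Gzmg by 35.8%. The naive library had a median of 3799 UMIs per cell. On the other side, Klf2 was in 55.5% of IL-15 and 1.70% of IL-2 cells, with 75.1% in naive cells (77.7% and 4.05% unthinned), and Bcl2 in 85.0% and 47.7% (27.8% in naive cells, 97.5% and 75.4% unthinned). Ccl5 was seen in 29.0% of IL-15 cells and 4.94% of IL-2 cells (10.1% in naive cells, 38.5% and 7.39% unthinned).

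Cells were also counted by gene sets, which were chosen after the values of the genes had been seen. A UMI of at least 1 of Tcf7, Klf2, S1pr1 and Ccr7 was held by 5276 of 6438 IL-15 cells (81.0 to 82.9%), 3.28% of IL-2 cells (2.79 to 3.83%) and 95.6% of naive cells, or 6156 of 6548 cells, 6.93% and 98.3% without thinning. A UMI of granzyme A or C to G was held by 0.311% of IL-15 cells, 4223 of 4693 IL-2 cells (89.1 to 90.8%) and 1.34% of naive cells, or, in the same order, 0.641%, 93.9% and 2.26% without thinning. Both sets were held by 8 of 6438 cells with IL-15 (0.124%) and 117 of 4693 with IL-2 (2.49%), or by 0.397% and 6.32% without thinning. The level varied widely among IL-2 cells, from 3 granzyme UMIs at the lower quartile through a median of 13 to 42 at the upper quartile, per 2000 UMIs. Of the 154 IL-2 cells with a homing or stem gene, 24 (15.6%, 10.2 to 22.3%) held Mki67 or Top2a, against 7.84% (7.08 to 8.66%) of the other IL-2 cells. With IL-15, the shares were 7.09% of 5276 cells with such a gene and 10.2% of 1162 without. Of the 154 IL-2 cells, 117 also held a UMI of granzyme A or C to G. Only 1 IL-2 cell held at least 3 of Tcf7, Klf2, S1pr1 and Ccr7. The shares describe cells of 1 library each, and whether they differ was not tested.

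**Figure D3:**
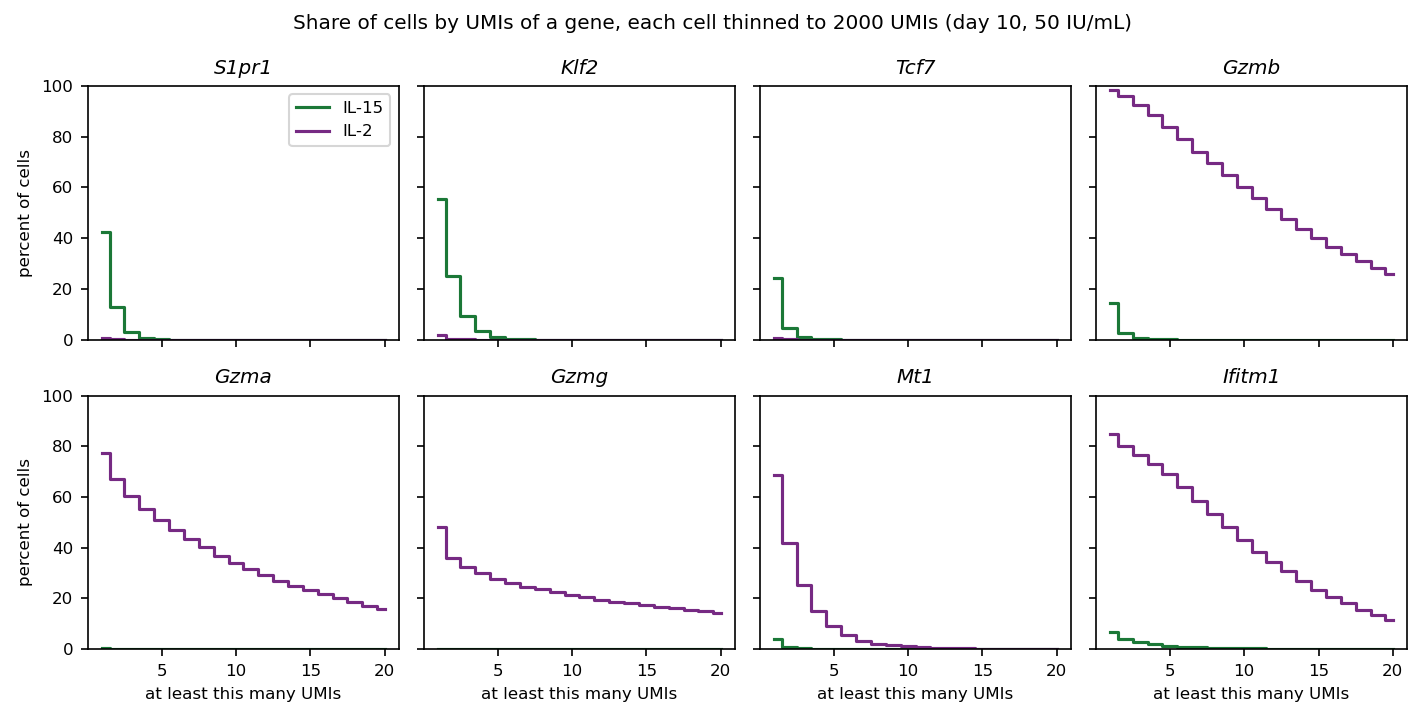
Share of cells, in percent, that held at least the number of UMIs on the horizontal axis, for 8 genes, with each cell thinned to 2000 UMIs; green is IL-15 and purple IL-2, both at 50 IU/mL on day 10. Gzmb was seen in 98.6% of IL-2 cells and 14.2% of IL-15 cells, while S1pr1 reached 42.3% of IL-15 cells and 0.469% of IL-2 cells.

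The homing and sterol lists kept their direction in cells with and without a UMI of Mki67 or Top2a. Cells without one can still be dividing. The late granzyme list could not do otherwise, since Gzmd, Gzme, Gzmf and Gzmg were at 0 UMIs in the whole IL-15 library. Its medians therefore cannot show whether division matters. Cells with a Mki67 or Top2a UMI numbered 858 with IL-15 and 660 with IL-2, and the others 5690 and 4277. The late granzyme median was -10.86 in cells without and -10.19 in cells with such a UMI, the homing median 3.62 and 2.92, and the sterol median -2.61 and -1.90. The median changed sign between these cells for 3 lists: cytokines and chemokines (-0.55 and 0.15), ribosome biogenesis (0.13 and -0.11) and MHC class II (-0.13 and 0.03). Genes higher with IL-15 were 10.7% of those tested in cells without such a UMI and 7.68% in cells with one, and genes lower 12.1% and 11.2% (22.8% and 18.9% in either direction). Cdkn2a differed by -5.76 in cells without and -3.38 in cells with one, and Cdkn1a by -6.69 and -5.39.

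Naive cells of day 0 gave a reference outside the pair. Of the 5555 tested genes, 92.0% were within 2-fold of their naive level with IL-15 and 67.2% with IL-2, by a difference under 1 in log2(CPM + 1). On this scale a gene near 0 CPM in both counts as within 2-fold whatever its CPM ratio. Among the 548 genes higher with IL-15, 84.9% were within 2-fold of naive in the IL-15 library, and 85.4% were at least 2-fold below naive in the IL-2 library. For the 644 lower genes the picture was alike, with 79.0% within 2-fold of naive with IL-15 and 83.1% at least 2-fold above naive with IL-2. Most of the differences between the cytokines were therefore ones in which the IL-2 library was away from the naive level. Exceptions were found on the IL-15 side: Bcl2 was at 191 CPM in naive cells, under both day 10 libraries, Drc1 at 1.62 CPM against 67.9 CPM with IL-15, and Dyrk4 at 0.596 CPM against 51.3 CPM. Dapl1 (630.3 CPM), Tcf7 (471 CPM) and Il7r (446 CPM) were higher in naive cells than with IL-15.

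The 30 named genes were also placed among all 21 libraries. They were chosen for their difference in this pair, so high and low ranks of its libraries follow in part from the choice. The IL-2 library had the highest level of the series for all 15 of the lowest genes named by the rule, and the lowest level for 13 of the 15 highest; Drc1 and Dyrk4 were the others. The IL-15 library held the top rank for 3 of the 30 genes, Drc1, Dyrk4 and Sh3bp5. For 6 of the 15 lowest genes the IL-15 library was at 0 UMIs. With IL-2v at 50 IU/mL on day 10, Gzmd was at 424 CPM, Gzmb at 3143 CPM, S1pr1 at 12.0 CPM and Klf2 at 20.3 CPM. Among genes of the metabolic lists, Mt1 in that library was near IL-15 at 50.2 CPM, while Asns (116 CPM) and Hmgcs1 (198 CPM) were near IL-2. Hmgcs1 was not at its highest in the IL-2 library, which ranked 7 of 21 for it. At 5 IU/mL, IL-2 left Hmgcs1 at 36.2 CPM and Asns at 7.63 CPM, near the levels with IL-15 at 50 IU/mL, but Gzma at 1114 CPM and Ifitm1 at 1953 CPM.

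**Figure D4:**
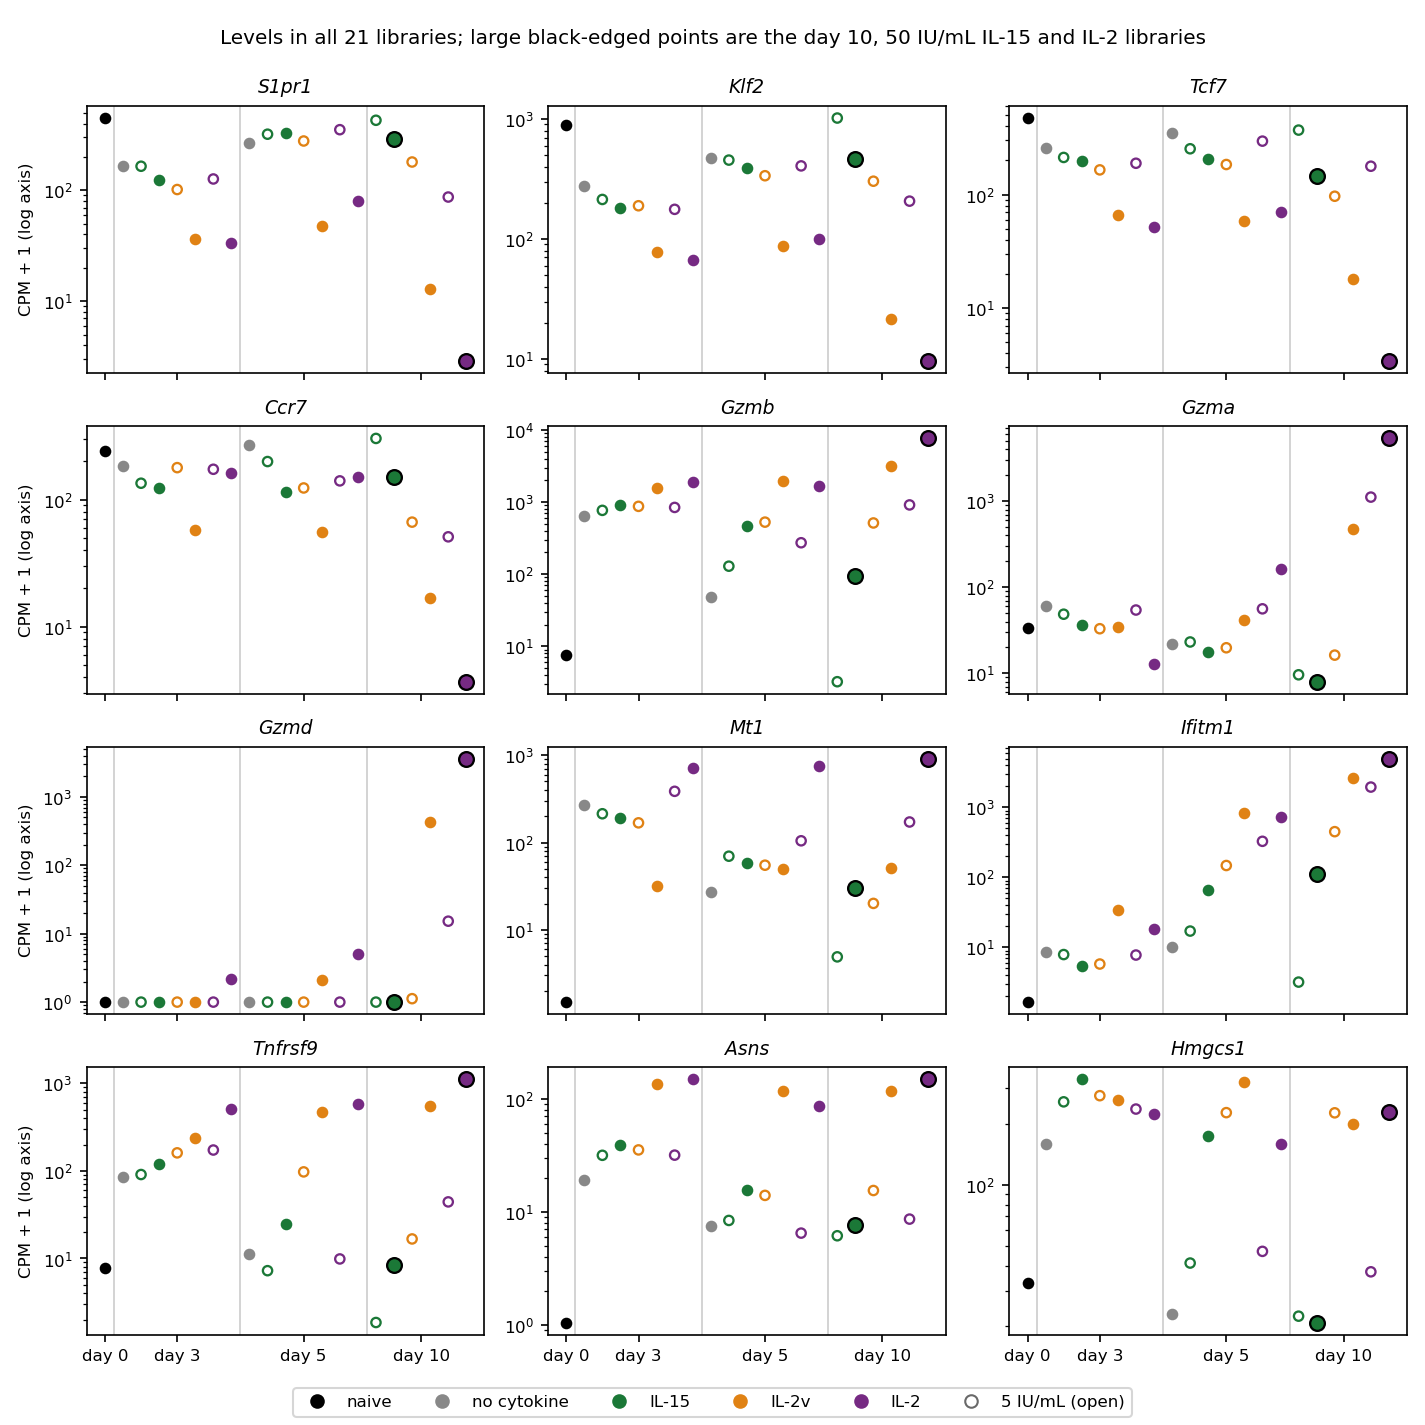
Levels of 12 genes in all 21 libraries, as CPM + 1 on a log axis, ordered by day and then by cytokine; filled points are 50 IU/mL (or no cytokine), open points 5 IU/mL, and large black-edged points mark the pair compared. Gzmd is at 0 CPM in most libraries and at 3602 CPM with IL-2 on day 10, where S1pr1 is lowest at 1.87 CPM.

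The same contrast was taken at 50 IU/mL on days 3 and 5 and at 5 IU/mL on day 10; with the late high-dose pair these are 4 pairs that share no library, and the pairs at 5 IU/mL on days 3 and 5 were not used here. Fewer genes passed 2-fold there. Higher and lower genes were 2.24% and 3.62% of those tested on day 3 (5.86% in either direction), 4.29% and 8.01% on day 5 (12.3%), and 2.42% and 9.19% at 5 IU/mL on day 10 (11.6%), against 21.5% in either direction in the late high-dose pair. Of the 644 genes lower at day 10 and 50 IU/mL, 87 of 487 that could be tested on day 3 (17.9%) were also lower there, which was 39.5% of the genes lower on day 3. On day 5 the count was 193 of 502 (38.4%, and 40.5% of the genes lower there), and at 5 IU/mL 197 of 417 (47.2%, and 36.8%). For the 548 higher genes the counts were 73 of 482 (15.1%), 83 of 519 (16.0%) and 67 of 528 (12.7%), or 53.7%, 32.5% and 47.5% of the other pairs' lists. In the same order, 6, 12 and 27 of these higher genes were at least 2-fold lower in the other pair, and 9, 9 and 0 of the lower genes at least 2-fold higher. Higher in all 4 of these pairs were 19 genes, among them Klf2, Klf3, Tcf7, S1pr1, Itga4, Actn1, Dapl1 and Cd8b1, and lower in all 4 of them were 34, among them Gzmb, Il2ra, Tnfrsf9, Mt1, Mt2, Cdkn1a, Atf4, Nfil3, Bhlhe40 and Slc2a3. The S1pr1 difference was 1.90 on day 3, 2.03 on day 5, 2.30 at 5 IU/mL on day 10 and 6.66 at 50 IU/mL. That of Gzmb was -1.06, -1.87, -8.14 and -6.34 in the same order, so the low-dose pair of day 10 differed more for this gene. The sterol median was 0.21 on day 3 (0 of 29 tested members lower), 0.01 on day 5 (3 of 29 lower, 2 higher) and -0.81 at 5 IU/mL (7 of 15 lower, 0 higher), against -2.45 (20 of 23 lower). The ATF4 and stress response list had medians of -1.41, -2.45 and -0.74, against -3.53. Other lists differed more elsewhere than in the late high-dose pair. Glycolysis genes were lower in 9 of 20 on day 3, 13 of 20 on day 5 and 16 of 18 at 5 IU/mL (medians -0.90, -1.34 and -1.94), against 1 of 18. STAT5 targets were lower in 10 of 14 at 5 IU/mL (median -1.94), against 3 of 14, and ribosome biogenesis genes were higher in 18 of 26 on day 5 (median 1.25), against 2 of 26. Whether these pairs differ from one another was not tested.

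**Figure D5:**
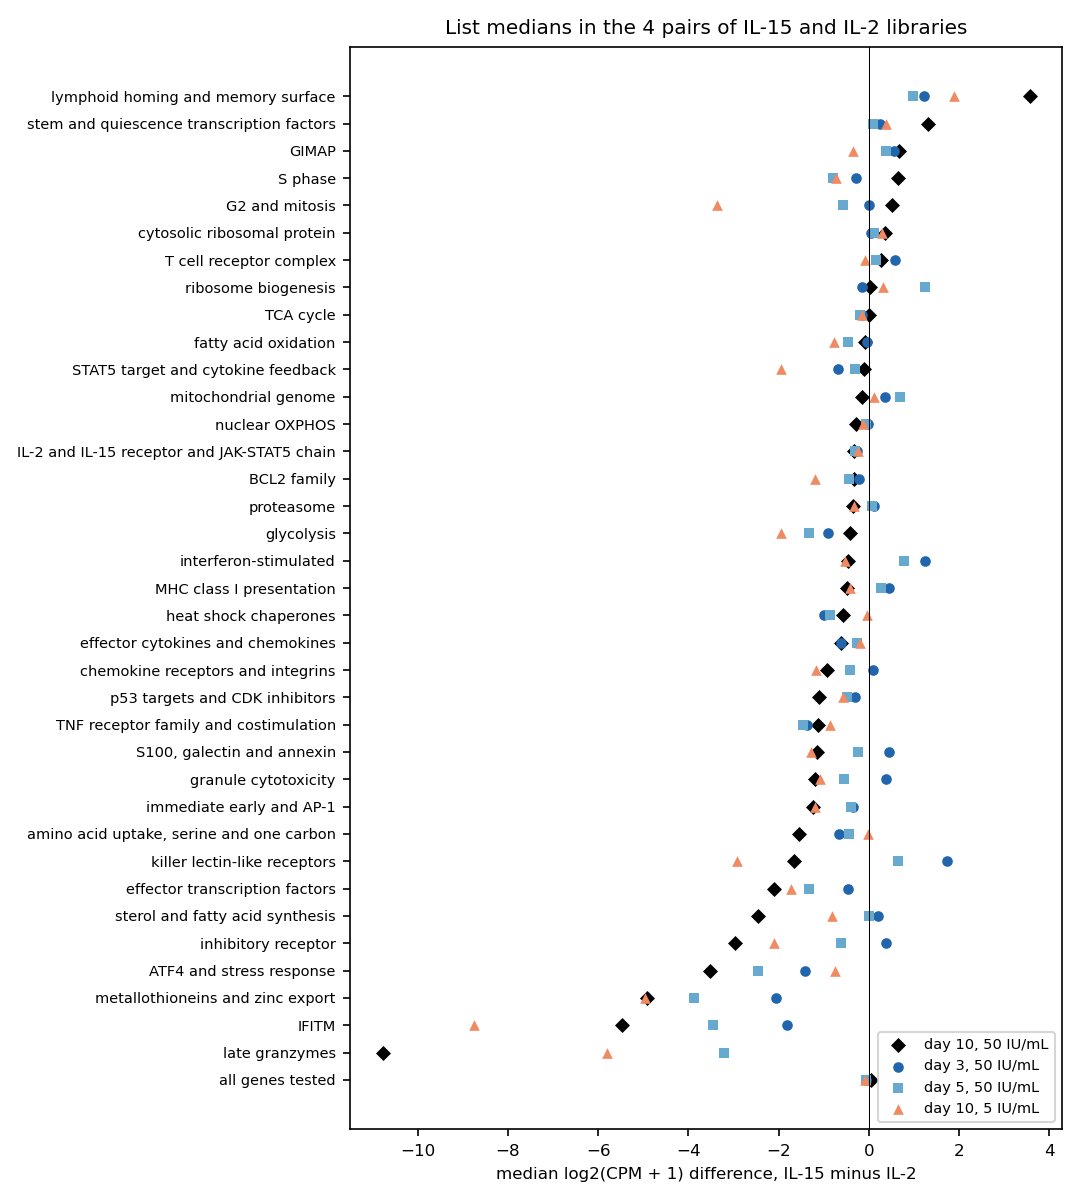
Median difference in log2(CPM + 1), IL-15 minus IL-2, of each gene list with at least 3 tested members in the day 10, 50 IU/mL pair, shown for 4 pairs of libraries of equal day and dose (other pairs can rest on fewer tested members); diamonds are day 10 at 50 IU/mL, circles day 3 and squares day 5 at 50 IU/mL, triangles day 10 at 5 IU/mL. The homing list is above 0 in all 4 of these pairs and the metallothionein and IFITM lists below 0, while the sterol list lies at -2.45 in the late high-dose pair and between -0.81 and 0.21 in the others.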

How the data were processed

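Single-cell libraries were made by the authors with unique molecular identifiers; per the submitters' processing notes, Cell Ranger and Seurat (4.0.1 and 3.0.2) were used with the mm10 genome, in an order that is not given in the sources used here. The deposited matrices hold whole-number UMI counts per gene and cell, which the authors had not normalized. The protocol text of the labels also describes a sort of T cells from tumours; titles, growth protocol and design text, which describe culture, were followed.

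A cell filter of 1000 UMIs or more, 500 genes or more and no more than 10% of UMIs from mitochondrial genes removed 0 cells of the pair. Doublets were not removed; an alternative left out cells with more than 2 times the median UMIs. UMIs were summed per gene and library, scaled to CPM, and compared as log2(CPM + 1). A gene was tested at 20 CPM or more in either library and called at an absolute difference of 1 or more. With 1 library per group there was no test, and the comparison is between these libraries. Genes named were the 15 highest and 15 lowest whose larger value was 50 CPM or more, as well as list members. The 37 gene lists, 6 marker lists and the pair itself were chosen with earlier results of these data known. Intervals are exact Poisson (CPM) and Clopper-Pearson (shares) at 95%; PCR copies are collapsed by UMI, and intervals cover counting error only. Cells were thinned at random to 2000 UMIs for shares, which left out 110 IL-15 and 244 IL-2 cells. The floor of 3 UMIs was 0.0941 CPM with IL-15 and 0.110 CPM with IL-2. Totals of the 21 libraries ran from 10589950 to 32648496 UMIs.

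Python 3.11.15, numpy 2.4.6, scipy 1.17.1 and pandas 2.3.3 were used, with edgeR 4.0.16 for TMM factors only and BLAST+ 2.17.0 for transcript identity. Positions and overlaps are from GENCODE for mm10, which matched 789 of 793 gene names looked up, and promoter windows from RefSeq for GRCm38.p6. The script was tested on simulated counts. Alternatives were other totals, pseudocounts, filters and cell subsets. Some list members are not reported here by name.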

Additional observations from a re-analysis of the deposited data

Results flagged for a closer look

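Named genes at least 1 log2 unit apart, and list medians at least 0.5 from 0, were looked for that had the opposite sign, past the same limit, in another of the 4 pairs of libraries; 2 genes and 3 lists met this. Whether the pairs differ was not tested, since each holds 1 library per arm. Gzma was lower by 9.39 log2 units in the late high-dose pair but differed by 1.48 on day 3, where its level was higher with IL-15. Dyrk4 differed by 5.08 in the late high-dose pair and by -1.47 at 5 IU/mL on day 10. Killer lectin-like receptors had a list median of -1.66 at day 10 and 50 IU/mL, 1.74 on day 3 and 0.639 on day 5, resting on 4, 2 and 2 tested members. The S phase list had a median of 0.64 in the late high-dose pair, -0.786 on day 5 and -0.727 at 5 IU/mL on day 10. For genes of G2 and mitosis the medians were 0.52, -0.576 and -3.37. Other lists also changed sign with a median under that limit in the late high-dose pair or in the other: interferon-stimulated genes (-0.47, then 1.25 on day 3 and 0.79 on day 5), inhibitory receptors (-2.97 and 0.39 on day 3), granule cytotoxicity (-1.19 and 0.39), S100, galectin and annexin genes (-1.16 and 0.45), sterol synthesis (-2.45 and 0.21) and GIMAP genes (0.67 and -0.35 at 5 IU/mL) were among them. The share of cells with Mki67 or Top2a was 2.74% with IL-15 and 12.0% with IL-2 at 5 IU/mL on day 10, against 7.66% and 8.10% at 50 IU/mL.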

How the results depend on the processing

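No paired analysis was possible because the labels give no replicate numbers and each condition has 1 library. The 30 named genes, chosen as the widest differences, all kept their direction under the 13 alternatives, of which the one with all barcodes equals the reported analysis because no cell was removed. Genes at least 2-fold higher numbered 1234 with totals that left out ribosomal and mitochondrial genes, 332 with a pseudocount of 10 CPM, 1208 with no filter on low genes and 271 at a minimum of 50 CPM, against 548. Lower genes numbered 1479 with no filter and 389 at 50 CPM, against 644. The filters change how many genes are tested, and so do the reduced totals (7282 against 5555, by the minimum of 20 CPM); beyond that the cause was not tested. TMM scaling gave 475 higher and 734 lower genes and moved the median of all genes to -0.05. The share of cells with Mki67 or Top2a was 5.12% with IL-15 and 5.12% with IL-2 at 1000 UMIs per cell, and 13.1% and 13.4% with no thinning. Without cells of more than 2 times the median UMIs it was 6.23% with IL-15 (5.63 to 6.87%) and 7.74% with IL-2 (6.96 to 8.57%), with intervals for counting error only. A different measure, at least 3 UMIs of the S phase and mitosis lists, took 40.8% of IL-15, 30.9% of IL-2 and 49.2% of naive cells. Of 481 list medians under an alternative 314 moved by less than the counting error of their members and 167 by more; lists that changed sign were the receptor and JAK chain, STAT5 targets, cytokines, the TCA cycle, fatty acid oxidation, ribosome biogenesis, MHC class II and the mitochondrial genome. Other medians that moved by over 1.5-fold on the CPM scale included, with the reduced totals, those of effector factors (-2.09 to -1.24), the TNF receptor family (-1.13 to -0.31) and metallothioneins (-4.92 to -3.32). With a pseudocount of 10 CPM they were those of late granzymes (-10.78 to -7.46), homing (3.56 to 1.88), inhibitory receptors (-2.97 to -1.80), ATF4 and stress genes (-3.53 to -2.57), sterol genes (-2.45 to -1.71) and killer lectin-like receptors (-1.66 to -0.93). With no filter they were those of effector factors (-1.44), inhibitory receptors (-0.99), the TNF receptor family (-0.39), killer lectin-like receptors (-0.46) and metallothioneins (-2.71). Over all alternatives the late granzymes ranged from -11.43 to -7.46, killer lectin-like receptors from -2.44 to -0.46 and metallothioneins from -5.54 to -2.71. Late granzymes reached -11.43 under a change of scaling. Homing was at 2.92 in cells with a Mki67 or Top2a UMI. Of 390 values of named genes 336 were within their counting error and 54 moved. The minimum of 20 CPM left Tbx21, Xcl1 and Ifng out of the counts, and 1 library per arm leaves the spread between cultures unknown.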
